A study of Homo sapiens with 12 samples.

Results

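The data described are the 6 libraries of palmitate-treated LM3 cells among the 12 of the study: 3 carried a hairpin against ACSL5 (shACSL5_PA) and 3 a control hairpin (shControl_PA), and they were chosen by their treatment and hairpin labels alone. LM3 cells are a lung-metastatic derivative of MDA-MB-231, an established human breast cancer line without oestrogen and progesterone receptors. RNA was measured by sequencing of polyadenylated transcripts, and the study asks about ACSL5 in lung metastasis of breast cancer. All 6 libraries share the treatment with palmitic acid, a common saturated fat, so that the comparison shows the knockdown within lipid-loaded culture and not the effect of the lipid. The dose, duration and vehicle of the treatment, the hairpin sequence, the number of hairpins and whether the cells are 1 clone do not appear in the labels, and a feature of this hairpin or clone cannot be told apart from loss of ACSL5. Nothing in the labels says that the 3 libraries of a group were grown separately, and p-values can therefore reflect technical spread alone.

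ACSL5 is one of the long-chain acyl-CoA synthetases, enzymes that join a fatty acid to coenzyme A. The product can be burned in mitochondria, built into triglycerides, phospholipids or sphingolipids, or used to modify proteins, and the relatives ACSL1, ACSL3 and ACSL4 carry out the same reaction with other fatty acid preferences and in other membranes. Palmitate is known to load this step and to raise saturated lipid in the endoplasmic reticulum (ER), where unfolded-protein and amino-acid stress programmes and inflammatory signalling through NF-kB can respond.

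Library totals ran from 18014888 to 18614091 counts in shControl_PA and from 18875565 to 20623983 in shACSL5_PA, and 14090 of 57730 genes had enough counts to test. Knockdown and control libraries parted along the leading principal component, which carried 58.1% of the variance. All 12 markers of MDA-MB-231 identity were tested, at a sum of 8943 to 9110 counts scaled to library size (CPM) in control and 7324 to 7555 CPM in knockdown libraries. Immune markers were near 0 apart from CD68, the 1 tested: CD3E had no count, PTPRC at most 5 in a library, and the summed list stood at 35.3 to 36.9 CPM against 44.9 to 53.3 CPM. Of 15 luminal markers 9 were tested, among them KRT8 (185 to 235 CPM), KRT18 (175 to 220.0 CPM), XBP1 (168 to 186 CPM) and ERBB2 (62.3 to 77.4 CPM), while PGR, TFF1 and ELF5 had no count and ESR1 at most 4. The summed luminal list ran from 767 to 779 CPM against 636 to 684 CPM, the endothelial list from 43.1 to 46.8 against 33.9 to 35.5 CPM and the lung epithelial list from 37.2 to 42.4 against 27.1 to 28.8 CPM. Most of the endothelial sum came from ESAM (32.1 to 43.7 CPM over the libraries). Most of the lung epithelial sum came from NKX2-1 (25.4 to 40.4 CPM), and SFTPC, SCGB1A1 and FOXJ1 had no count. The part of these differences in the results was not tested, and in bulk RNA fewer cells of a type and less RNA per cell cannot be told apart.

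ACSL5 itself (gene ENSG00000197142 on chromosome 10 of GRCh38, 112374018 to 112428380, plus strand) stood at 186, 191 and 187 CPM in the control libraries and at 14.8, 13.2 and 17.5 CPM in the knockdown libraries. The CPM of ACSL5 and of the genes below carry TMM factors, which correct for differences in library composition. The marker values above were scaled by library totals alone. All 3 knockdown libraries lay far below all 3 controls, 15.2 ± 2.19 against 188 ± 2.66 CPM (SD, n = 3), and 8.09% of the transcript remained. The log2 change was -3.63 (SE 0.06, adjusted p = 8.83e-17), while the 2-sided exact permutation test of the levels gave p = 0.1, the smallest that 3 against 3 allows. Of its relatives, ACSL3, which sits on the ER and lipid droplets, stood at 175, 168 and 168 CPM against 139, 152 and 139.7 CPM, with groups that did not overlap and a log2 change of -0.25 (SE 0.04, adjusted p = 6.14e-05). ACSL4, which prefers polyunsaturated fatty acids, changed by -0.13 (SE 0.04, adjusted p = 0.00748) on the log2 scale, and ACSL1 stood at 36.5, 34.8 and 36.7 CPM against 40.0, 40.7 and 38.1 CPM without passing the test (log2 0.14, SE 0.06, adjusted p = 0.0624). With the transcripts' length and G+C content modelled, ACSL3 no longer passed (log2 -0.01) and ACSL4 turned to 0.11, and without shControl_PA replicate 2 ACSL4 did not pass (log2 -0.09). With the same offset, or without shACSL5_PA replicate 3, ACSL1 passed at 0.16 and 0.17.

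Across the transcriptome 7405 of the 14090 genes tested (52.6%) passed an adjusted p under 0.05, 3749 of them higher (26.6%) and 3656 lower (25.9%) in knockdown cells. The median gene moved by 0.01 and the median size of a change was 0.25 on the log2 scale, so most calls are small. Changes of at least 2-fold were called for 655 genes (4.65%), 278 higher (1.97%) and 377 lower (2.68%), and of at least 4-fold for 53 higher and 35 lower genes. The libraries of the groups did not overlap for 58.6% of all genes tested. Counts over gene lists below are to be read against these shares.

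The largest rise among genes of at least 5 CPM was in STXBP6 (chromosome 14, 24809656 to 25050297, minus strand), which encodes a syntaxin-binding protein of vesicle fusion. It was nearly silent in the controls at 0.269, 0.221 and 0.0536 CPM and stood at 11.1, 11.8 and 10.2 CPM in the knockdown. The log2 change of 5.88 rests on 10 counts over the 3 control libraries, and its 95% exact binomial interval, which covers counting error only, ran from 5.05 to 7.00. SUSD2, a membrane protein with sushi and somatomedin domains, went from 4.24, 2.82 and 4.18 CPM to 28.7, 29.2 and 32.6 CPM (log2 3.00, SE 0.12, adjusted p = 3.94e-12). MATN2, a matrilin of the extracellular matrix, went from 2.69, 2.54 and 2.52 CPM to 17.4, 17.8 and 15.6 CPM (log2 2.71, SE 0.13, adjusted p = 2.16e-11). Both were low in every control library and several times higher in every knockdown library, though groups without overlap were a condition of the choice. ANKRD1, an ankyrin-repeat protein and a standard read-out of the YAP coactivator, stood at 23.0, 23.5 and 22.4 CPM in control and 153, 153 and 141 CPM in knockdown libraries (log2 2.70, SE 0.05, adjusted p = 2.62e-16). It was the most abundant of the 12 genes with the largest rises.

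The 12 included 2 enzymes of lipid signalling and transport. SPHK1, the kinase that makes sphingosine 1-phosphate, stood at 7.25, 5.80 and 6.01 CPM against 36.3, 34.9 and 34.5 CPM (log2 2.47, SE 0.09, adjusted p = 1.52e-12). ATP8B1, a flippase that moves phospholipids across the plasma membrane, stood at 2.52, 3.37 and 3.22 CPM against 16.2, 18.6 and 16.2 CPM (log2 2.48, SE 0.13, adjusted p = 1.13e-10). HSD17B10, a mitochondrial dehydrogenase of branched-chain amino acid and fatty acid breakdown that is also a subunit of mitochondrial RNase P, rose from 14.9, 14.2 and 12.9 CPM to 53.5, 52.5 and 53.3 CPM (log2 1.92). The groups did not overlap for any of the 3 enzymes, which the choice of these genes required. GPNMB, a glycoprotein of lysosomes and the cell surface, rose by 2.08, the matrix protease ADAMTS6 by 2.00 and the focal adhesion scaffold NEDD9 by 1.92 on the log2 scale. The pseudogene RPL13AP20 (1.95) and the keratin-associated KRTAP2-3 (1.94) share sequence with close copies, so their reads may come from relatives.

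After ACSL5, the deepest fall was listed for DNAJC25-GNG10 (log2 -3.02), a read-through locus. Of its exon bases 100% overlap other genes such as GNG10, so that its counts cannot be told apart from theirs. Within the untreated groups it varied widely, at 11.4 ± 8.86 CPM in control and 4.84 ± 7.00 CPM in knockdown libraries (SD, n = 3). The knockdown without palmitate did not pass for this locus (log2 -1.21, adjusted p = 0.117). JCAD (chromosome 10, 30012800 to 30115494, minus strand), a junction protein, stood at 13.9, 14.1 and 15.2 CPM in control and 3.36, 3.86 and 2.99 CPM in knockdown libraries (log2 -2.08 (SE 0.13, adjusted p = 7.82e-10)). MPP7, a polarity scaffold, fell by 2.04, the ER disulfide isomerase AGR2 by 2.01 and the receptor kinase GRK3 by 1.99 on the log2 scale. ADGRG1, an adhesion receptor also called GPR56, stood at 37.4, 38.8 and 33.5 CPM against 9.20, 9.93 and 9.78 CPM (log2 -1.92 (SE 0.09, adjusted p = 1.03e-11)). DPYSL3, which regulates the cytoskeleton, stood at 20.8, 19.6 and 15.9 CPM against 4.87, 5.77 and 4.97 CPM (log2 -1.85 (SE 0.13, adjusted p = 2.08e-09)). For both genes every knockdown library lay below every control library, which the choice of these genes required. CHAC1, which degrades glutathione under amino-acid stress, went from 17.9, 15.1 and 16.5 CPM to 4.96, 4.56 and 4.70 CPM (log2 -1.80 (SE 0.12, adjusted p = 1.18e-09)). The actin-severing protein SCIN fell by 1.78, C21orf91 by 1.85 and TC2N by 1.80 on the log2 scale.

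**Figure D1:**
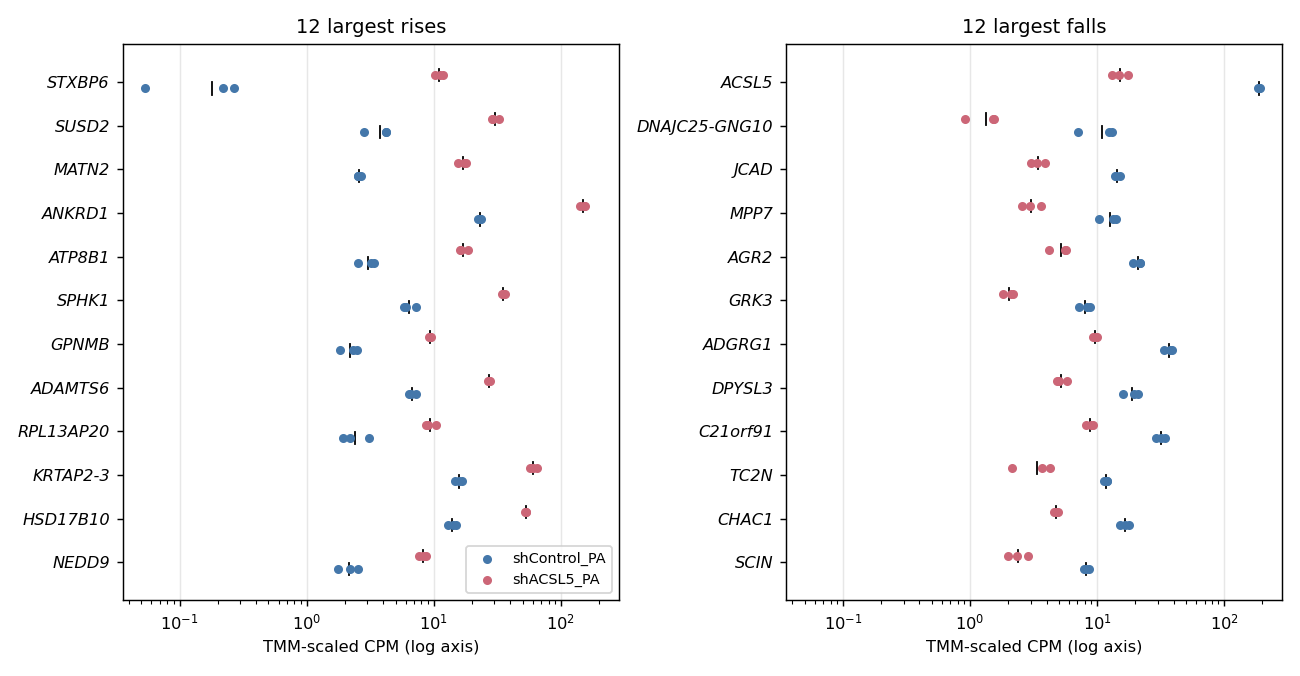
Level in each library (TMM-scaled CPM, log axis) of the 12 genes with the largest rises and the 12 with the largest falls among called genes of at least 5 CPM, with control libraries in blue, knockdown libraries in red and the group mean as a bar. No gene's groups overlap, which the choice of these genes required, and STXBP6 and ACSL5 show the widest gaps.

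The gene lists that follow cover pathways of lipid handling, stress, inflammation, adhesion and growth. Called shares of the lists are read against 52.6% of all genes. Members were named for the lowest p of their list or after their values were seen. Groups without overlap are favoured by that choice, and 58.6% of all genes tested had them. Apart from the marker lists above, the lists with the lowest medians were integrin and laminin subunits (-0.57 on the log2 scale), NF-kB targets (-0.35) and mesenchymal and matrix genes (-0.25), and those with the highest were heat shock genes (0.17), S phase genes (0.17) and cytosolic ribosomal proteins (0.14), beside 0.01 over all genes tested. With length and G+C content modelled the order changed: the highest median was that of YAP and TEAD targets (0.20), ribosomal proteins stood at 0.07, and epithelial (-0.29) and ATF4 stress response genes (-0.28) lay below the mesenchymal list (-0.19).

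**Figure D2:**
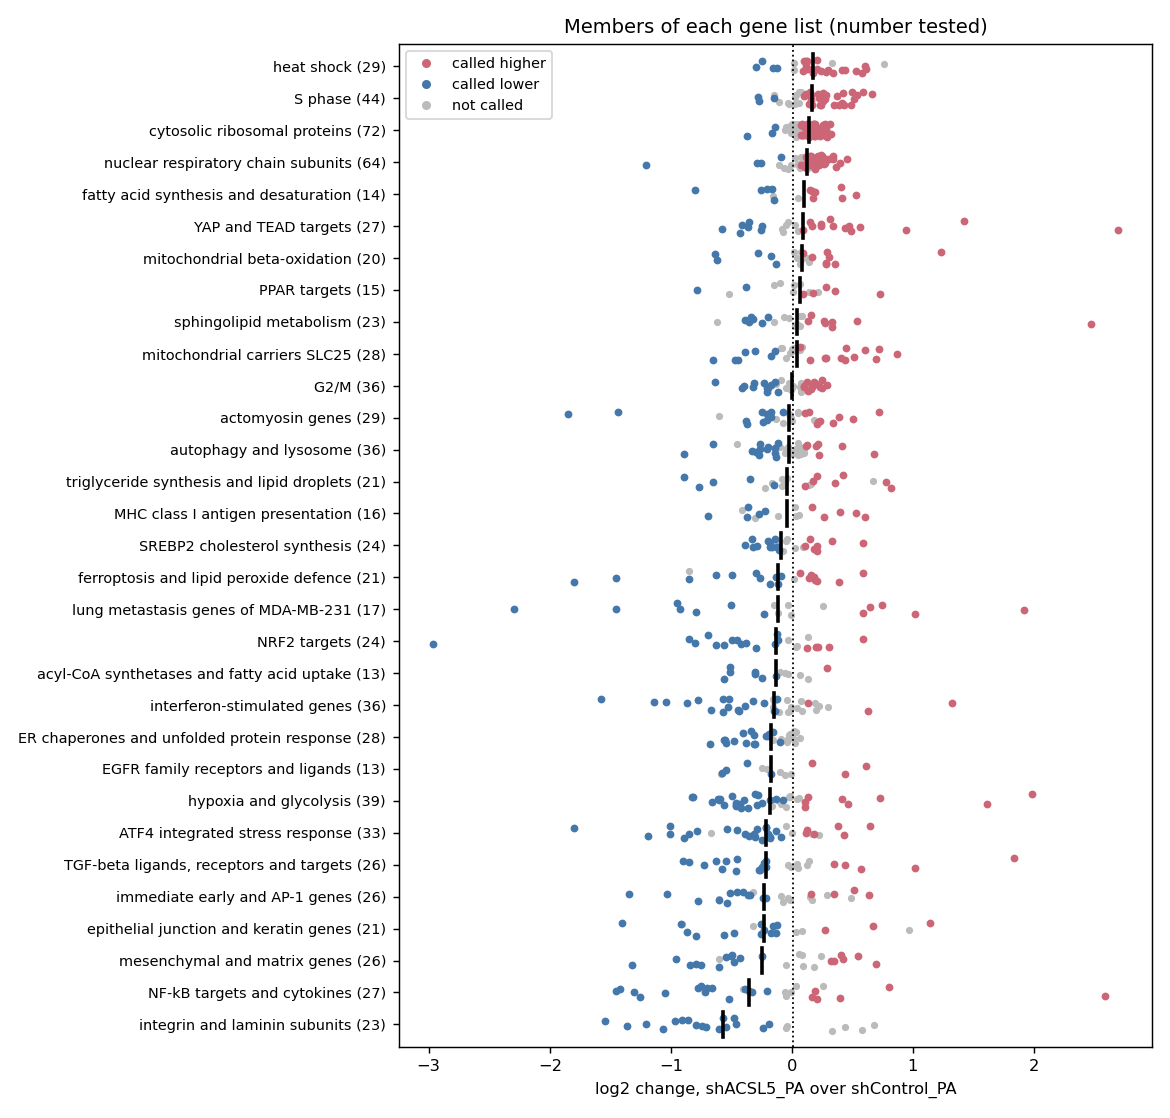
The log2 change of every tested member of 31 gene lists (knockdown over control, both with palmitate), ordered by the list median (black bar), with called members in red (higher) or blue (lower) and others in grey, and the median of all genes tested as a dotted line. Integrin and laminin subunits have the lowest median at -0.57 and heat shock genes the highest at 0.17.

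Genes under NF-kB, the transcription factor family that drives inflammatory and survival genes, were mostly lower in the knockdown. Of 27 tested members 15 fell, 6 rose and 6 did not pass (77.8% called, beside 52.6% of all genes), with 5 falling and 1 rising by at least 2-fold. A high called share is not particular to this list. Marker lists aside, the shares ran from 46.7% for PPAR targets to 90.5% for ferroptosis and lipid peroxide defence, and YAP and TEAD targets also stood at 77.8%. PTGS2 (chromosome 1, 186671791 to 186680427, minus strand), the cyclooxygenase that makes prostaglandins, stood at 55.1, 52.3 and 50.4 CPM in control and 20.3, 19.9 and 17.2 CPM in knockdown libraries (log2 -1.46 (SE 0.07, adjusted p = 3.3e-11)). CXCL8 (chromosome 4, 73740506 to 73743716, plus strand), the neutrophil chemokine interleukin 8, stood at 29.8, 27.6 and 28.8 CPM against 12.4, 12.4 and 10.0 CPM (log2 -1.30 (SE 0.09, adjusted p = 2.97e-09)). NFKBIZ, an atypical nuclear inhibitor of the family that also activates some targets, went from 20.03, 18.3 and 21.1 CPM to 9.63, 9.28 and 9.78 CPM (log2 -1.05 (SE 0.10, adjusted p = 7.9e-08)). For each of these 3 genes every knockdown library lay below every control library, which their choice by p favours. The stress-induced survival gene IER3 fell by 0.77 on the log2 scale.

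Other members of this list were picked out after their values were seen. NFKBIA, the classical inhibitor that NF-kB itself induces, stood at 63.0, 60.7 and 64.0 CPM against 44.4, 41.9 and 44.5 CPM (log2 -0.52 (SE 0.05, adjusted p = 2.4e-07)). TNFAIP3, the feedback inhibitor A20, stood at 12.5, 13.9 and 12.9 CPM against 6.81, 8.12 and 8.98 CPM (log2 -0.72 (SE 0.12, adjusted p = 7.69e-05)). Both feedback genes were thus lower in all 3 knockdown libraries. Among the factor's own subunits REL fell by 0.66 and NFKB2 by 0.35, while NFKB1 rose by 0.21 and RELA by 0.19 on the log2 scale. The cytokines IL1A (log2 -1.26, 92 counts against 41 over 3 libraries) and CSF2 (log2 -1.42) also fell, from under 5 CPM, and IL6, at 0.497 to 0.591 CPM in control libraries, did not pass (adjusted p = 0.994). The chemokine CCL2 moved the other way, from 0.537, 0.111 and 0.214 CPM to 2.14, 1.45 and 1.71 CPM, and the adhesion receptor ICAM1 rose from 3.33, 1.93 and 2.84 CPM to 4.72, 4.86 and 4.60 CPM. The CCL2 rise (log2 2.59, SE 0.46, adjusted p = 0.000138) rests on 16 counts against 105, with a counting interval of 1.85 to 3.48.

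RefSeq promoters, 250 bases before to 50 after each gene's start, were searched for a short NF-kB motif, GGG, any 2 bases and TTTCC on either strand, in the 10493 tested genes that have one. It was found in 10 of the 22 NF-kB list members with a promoter and in 2.12% of all promoters. Of those 10 genes 6 fell (NFKBIA, NFKBIZ, REL, TNFAIP3, CXCL2 and BIRC3) and 1 rose (NFKB1), but over all 222 promoters with a match 68 genes fell and 53 rose with a median of -0.02. The calls of CXCL2 and BIRC3 held in 8 and 6 of 13 alternative settings. CXCL2 lost its call with DESeq2 (adjusted p = 0.0844), in the fit of all 12 libraries and without shControl_PA replicate 1 or 3 or shACSL5_PA replicate 2 (log2 -0.71, -0.65 and -0.52). BIRC3 lost its call with DESeq2 (adjusted p = 0.115), with the replicate block, with length and G+C content modelled (log2 -0.04) and without replicate 2 or 3 of either group (log2 -0.32 to -0.24). Windows of 4 of the lower genes are shown 5′ to 3′ on the gene's strand to let the shared motif be seen, with every match in capitals and its flanks in lower case (RefSeq, GRCh38.p14; NFKBIA chr14:35404796-35404855 minus, NFKBIZ chr3:101827742-101827801 plus, REL chr2:60881503-60881562 plus, TNFAIP3 chr6:137867167-137867238 plus).
NFKBIA: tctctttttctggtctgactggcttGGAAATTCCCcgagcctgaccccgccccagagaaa
NFKBIZ: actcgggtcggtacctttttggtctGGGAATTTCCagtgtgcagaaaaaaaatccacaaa
REL: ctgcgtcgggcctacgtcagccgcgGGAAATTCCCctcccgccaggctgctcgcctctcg
TNFAIP3: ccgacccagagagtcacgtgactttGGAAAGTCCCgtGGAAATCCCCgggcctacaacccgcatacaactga
The matches begin 81, 223, 46 and 67 bases before the start in this order, and TNFAIP3 holds 2. NFKBIA and REL carry the same 10 bases. A match describes these letters and is not evidence that the factor binds there.

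The same NF-kB genes were set beside their knockdown effect without palmitate, from 6 other libraries. CXCL8 had a log2 change of 0.93 there and -1.30 with palmitate, and the difference of the effects was -2.22 (SE 0.21, adjusted p = 2.96e-07). TNFAIP3 (0.82 without, -0.72 with palmitate) and NFKBIA (0.29 without, -0.52 with) turned in the same way, with differences of -1.53 (adjusted p = 3e-05) and -0.80 (adjusted p = 6.45e-07). PTGS2 did not pass without palmitate (log2 -0.16) and its effects differed by -1.29 (adjusted p = 1.47e-06). For IER3 the effects were alike in size (-0.84 and -0.77, difference 0.07 (SE 0.06, adjusted p = 0.464)). On the scale of all 12 libraries, CXCL8 averaged 1.69 CPM in untreated control and 3.18 CPM in untreated knockdown libraries. With palmitate CXCL8 averaged 29.2 and 11.7 CPM, so its untreated rise rests on low levels. In the same order PTGS2 stood at 6.72, 5.94, 53.5 and 19.3 CPM and TNFAIP3 at 4.96, 8.58, 13.3 and 8.03 CPM. NFKBIA stood at 31.5, 37.9, 63.6 and 43.9 CPM. Over the whole list 8 genes rose and 7 fell without palmitate. The difference of effects was called for 6 of the members, 4 of them below 0.

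**Figure D3:**
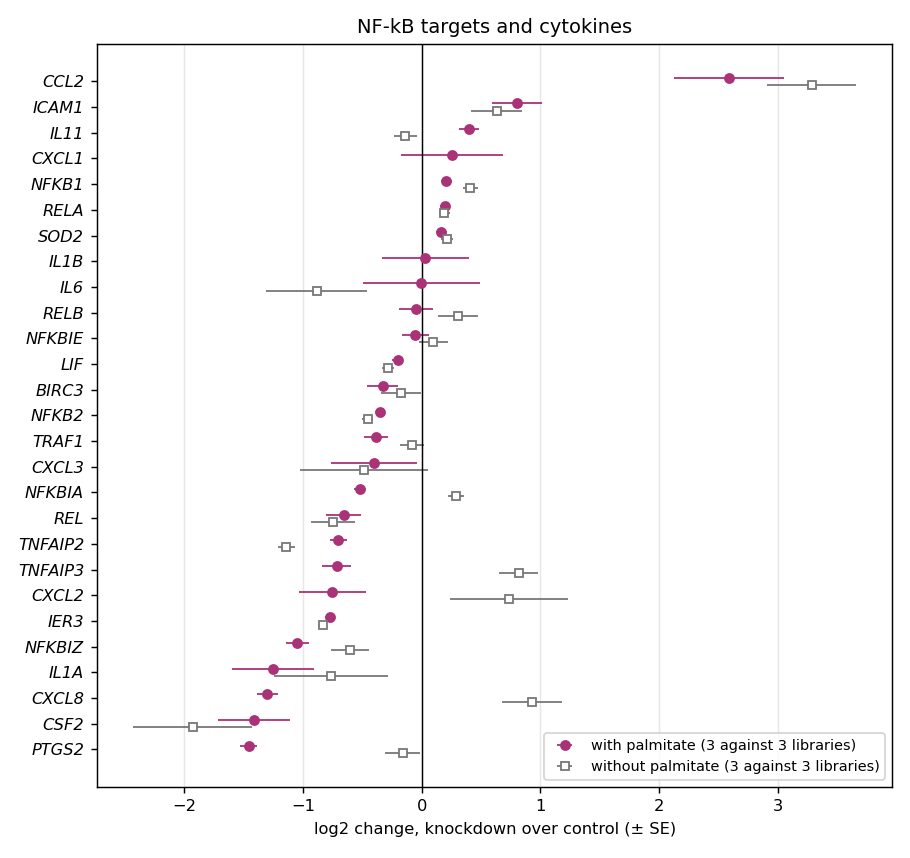
The log2 change (± SE) of each tested NF-kB target and cytokine on knockdown with palmitate (filled circles) and without it (open squares), 3 against 3 libraries in each, for the members tested. CXCL8, TNFAIP3 and NFKBIA lie on opposite sides of 0 in the 2 settings, while CCL2 is above 0 in both.

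Interferon-stimulated genes, which encode antiviral effectors and sensors, also leaned lower: 18 of 36 fell, 3 rose and 15 did not pass, with a median of -0.15. DDX60, an RNA helicase, stood at 21.9, 19.5 and 18.8 CPM in control and 7.06, 6.77 and 6.36 CPM in knockdown libraries (log2 -1.57 (SE 0.11, adjusted p = 1.53e-09)). SAMD9, a growth-restricting antiviral factor, stood at 137, 147 and 127 CPM against 76.0, 79.7 and 69.8 CPM (log2 -0.86 (SE 0.06, adjusted p = 9.97e-10)). Its neighbour SAMD9L fell by 1.04 and the exonuclease ISG20, picked out after its values were seen, by 1.14 on the log2 scale. In all 4 genes no knockdown library reached the lowest control library, which their choice by p or by value favours. IFIT1 (-0.39), IFIT3 (-0.52), the RNA sensor IFIH1 (-0.78) and PARP14 (-0.57) fell by less, and OAS1 rose by 1.32 from 1.02 to 1.77 CPM in the controls. Antigen presentation by MHC class I was split at 5 higher and 5 lower of 16, with HLA-C at -0.70 and the peptide-loading protein TAPBP at 0.60; HLA reads are shared between close copies.

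The interferon response motif, GAAA, any 2 bases and GAAA on either strand, lay in the promoters of 19 of 28 list members with a window and in 2.72% of all promoters, and 11 of the 19 genes fell while 1 rose. Over all 285 promoters with a match 82 genes fell and 66 rose. Windows of 3 lower genes are shown for the recurrent half-sites, with the matches in capitals (GRCh38.p14; DDX60 chr4:168318771-168318865 minus, SAMD9 chr7:93118081-93118140 minus, ISG20 chr15:88638922-88638981 plus).
DDX60: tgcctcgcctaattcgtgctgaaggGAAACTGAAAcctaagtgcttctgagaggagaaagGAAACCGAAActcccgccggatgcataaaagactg
SAMD9: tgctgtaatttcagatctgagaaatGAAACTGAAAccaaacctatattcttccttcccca
ISG20: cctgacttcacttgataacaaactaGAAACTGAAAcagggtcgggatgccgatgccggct
DDX60 carries 2 matches, and the first begins 88 bases before the start. SAMD9 and ISG20 carry 1 each, at 136 and 69 bases, with the same 10 letters.

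Integrins, the receptors that anchor cells to matrix, and laminins, the basement membrane proteins they bind, showed the lowest median of these lists. Of 23 tested subunits 17 fell, 0 rose and 6 did not pass, and 4 fell by at least 2-fold. LAMA5 (a laminin alpha chain) stood at 370.2, 365 and 355 CPM in control and 135, 135 and 155 CPM in knockdown libraries (log2 -1.36 (SE 0.05, adjusted p = 4.99e-13)). ITGA3, a laminin-binding alpha subunit, stood at 614, 606 and 566 CPM against 277, 281 and 297 CPM (log2 -1.06 (SE 0.04, adjusted p = 5.18e-13)). LAMB3, a chain of the hemidesmosomal laminin, stood at 742, 737 and 719 CPM against 359.7, 360.1 and 404 CPM (log2 -0.97 (SE 0.04, adjusted p = 2.54e-12)). All 3 are abundant transcripts, and every knockdown library lay below every control library, which their choice by p favours. The alpha subunits ITGA6 (-0.71), ITGAV (-0.86), ITGA1 (-1.21) and ITGA2 (-0.57) and the beta subunit ITGB5 (-0.54) fell too, the last 4 of these picked after their values were seen. These transcripts are long, with a median of 5674 bases over the list, and with length and G+C content modelled 15 of the 23 fell and 1 rose.

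Mesenchymal and matrix genes fell in 12 of 26 cases and rose in 6. VIM, the intermediate filament vimentin, stood at 3540, 3542 and 3412 CPM against 2530, 2587 and 2689 CPM (log2 -0.43 (SE 0.02, adjusted p = 1.07e-10)). COL6A2, a collagen VI chain, stood at 143, 143 and 139 CPM against 71.4, 70.3 and 77.4 CPM (log2 -0.96 (SE 0.04, adjusted p = 1.52e-11)). TNC, the matrix glycoprotein tenascin C, stood at 126, 128 and 128 CPM against 74.8, 73.4 and 72.9 CPM (log2 -0.79 (SE 0.04, adjusted p = 3.85e-11)). All 3 were lower in every knockdown library, which their choice by p favours. TGFBI fell by 0.84 and, chosen after their values were seen, S100A4 by 1.32, the transcription factor ZEB1 by 0.75, FN1 by 0.55 and the membrane protease MMP14 by 0.49 on the log2 scale, while the matrix protein THBS1 rose by 0.42. Epithelial junction and keratin genes were lower as well, 13 of 21 against 3 higher. CLDN4, a tight junction claudin, stood at 36.1, 35.2 and 37.0 CPM against 13.7, 14.2 and 13.0 CPM (log2 -1.41 (SE 0.07, adjusted p = 7.94e-11)), KRT19 was lower by 0.79 and the desmosomal DSC2 and DSG2 by 0.92 and 0.56, whereas CLDN1 rose by 1.14.

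Among genes published as a lung metastasis signature of MDA-MB-231, 7 of 17 fell, 5 rose and 5 did not pass. PTGS2 belongs to this list, as does TNC. MMP1, an interstitial collagenase, stood at 3.76, 3.70 and 3.81 CPM against 0.389, 1.35 and 0.534 CPM (log2 -2.30, 208 counts against 45). MAN1A1 (-0.92), KYNU (-0.95) and SPARC (-0.50) fell. ID3, an inhibitor of differentiation factors, rose from 46.3, 51.2 and 46.2 CPM to 93.7, 98.2 and 99.4 CPM (log2 1.02, SE 0.05, adjusted p = 4.08e-11), and NEDD9, FSCN1 (0.74) and LY6E (0.58) rose with it. The list therefore has no single direction. TGF-beta genes fell in 14 of 26 cases and rose in 5 (8 with length and G+C content modelled): the receptor TGFBR2 fell by 0.58, the latent binding protein LTBP3 by 0.85 and the repressor SKIL by 0.90, while the inhibitory SMAD6 rose by 1.83.

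YAP and TEAD targets, which respond to adhesion and tension, rose in 14 of 27 cases and fell in 7, with a median of 0.10. Beside ANKRD1, the coagulation receptor F3 rose from 86.2, 85.2 and 89.2 CPM to 236, 233 and 230.1 CPM (log2 1.42, SE 0.04, adjusted p = 1.31e-14). CCN1, a secreted matricellular protein, stood at 1828, 1848 and 1830 CPM against 2692, 2683 and 2776 CPM (log2 0.57, SE 0.02, adjusted p = 9.06e-13). CCN2, its close relative and another standard read-out, moved the other way, from 418, 423 and 422 CPM to 315, 310.1 and 312 CPM (log2 -0.43 (SE 0.03, adjusted p = 1.8e-09)). The TEAD motif GGAATG, on either strand, was in the promoters of 8 of 20 members with a window and in 10.8% of all promoters, ANKRD1 and CCN2 both among them. Over all 1133 promoters with a match 311 genes rose and 315 fell. The ANKRD1 window (GRCh38.p14 chr10:90921185-90921332 minus) is shown because that gene has the largest rise of the list; it holds 2 matches, in capitals, the first 220 bases before the start.
ANKRD1: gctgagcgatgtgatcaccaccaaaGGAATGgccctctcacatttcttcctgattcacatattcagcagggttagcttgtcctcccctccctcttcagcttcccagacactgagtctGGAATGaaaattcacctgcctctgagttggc
Immediate early genes fell in 12 of 26 cases and rose in 4. Among the lower ones were the phosphatases DUSP4 (-0.53) and DUSP6 (-0.51), which restrain ERK signalling, and the factors KLF2 (-1.35) and NR4A1 (-1.03). For DUSP6 40.5% of exon bases overlap another gene.

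Genes of the integrated stress response, which ATF4 drives when amino acids run short or the ER is loaded, fell in 22 of 33 cases and rose in 6, with a median of -0.21. ASNS, asparagine synthetase, stood at 242, 247 and 251 CPM against 133, 133 and 135 CPM (log2 -0.89 (SE 0.03, adjusted p = 2e-12)). SLC7A11, the cystine importer, stood at 277, 284 and 270.1 CPM against 156, 163 and 143 CPM (log2 -0.85 (SE 0.04, adjusted p = 4.35e-11)). DDIT4, a brake on mTORC1, stood at 98.0, 91.3 and 98.0 CPM against 47.0, 47.5 and 48.7 CPM (49.8% of control, SE 0.05 on the log2 scale, adjusted p = 2.43e-11). Together with CHAC1 these had no overlap between groups, which their choice by p favours. Of ASNS exon bases 44.6% and of DDIT4 exon bases 41.2% overlap another gene, whose reads cannot be told apart. GDF15 (-1.19), PSAT1 (-0.45), TRIB3 (-0.35) and ATF4 itself (-0.18) fell too, named after their values were seen. The phosphatase subunit PPP1R15A rose by 0.43, and DDIT3 (CHOP, adjusted p = 0.786) and ATF3 (adjusted p = 0.191) did not pass. For DDIT3 39.6% of exon bases overlap another gene.

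ER chaperones and unfolded protein response genes fell in 16 of 28 cases and rose in 0. HSPA5, the chaperone BiP, stood at 1414, 1385 and 1371 CPM in control and 1100, 1102 and 1106 CPM in knockdown libraries (log2 -0.33 (SE 0.02, adjusted p = 1.96e-09)). Its partner HSP90B1 fell by 0.40, the reductase DNAJC10 by 0.55 and SEL1L, a part of ER-associated degradation, by 0.68. In the untreated cells HSPA5 stood at -0.06 on the log2 scale, but DNAJC10 at -0.56, with a difference of effects of 0.01 (adjusted p = 0.94). Over the list 13 members fell and 8 rose without palmitate. The difference of effects was called for 7 list members, all below 0. Heat shock genes, a list that includes mitochondrial chaperones such as HSPD1, went the other way, with 21 of 29 higher and 4 lower. DNAJB1 rose by 0.58, HSF1, the factor that drives heat shock genes, by 0.62, FKBP4 by 0.44 and HSPA1B, which shares reads with a near copy, by 0.41.

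NRF2 targets, which answer to oxidants, fell in 14 of 24 cases and rose in 5. NQO1, a quinone reductase, stood at 539, 549 and 552 CPM against 378, 365 and 369 CPM (log2 -0.56 (SE 0.03, adjusted p = 6.14e-11)). GCLM, a subunit of the enzyme that starts glutathione synthesis, stood at 169, 181 and 176 CPM against 111, 115 and 99.8 CPM (log2 -0.69 (SE 0.05, adjusted p = 2.25e-09)). FTL, the ferritin light chain, was the exception among the named genes, at 911, 908 and 917 CPM against 1343, 1352 and 1424 CPM (log2 0.59, SE 0.03, adjusted p = 8.84e-12), and FTH1, the heavy chain, fell by 0.30. Both ferritins have many processed copies in the genome, and 62.4% of FTH1 exon bases overlap BEST1. Genes of ferroptosis and lipid peroxide defence were divided, 8 higher and 11 lower of 21. The higher members numbered 5 with DESeq2, 4 without shControl_PA replicate 1 and 5 without shControl_PA replicate 2, and the lower ones 7 without shControl_PA replicate 2.

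Lipid metabolism, the process ACSL5 belongs to, showed changes in both directions, with list medians from -0.13 to 0.10 on the log2 scale. Acyl-CoA synthetases and uptake genes fell in 7 of 13 cases and rose in 1, but 5 fell and 4 rose with length and G+C content modelled, and 2 rose without shACSL5_PA replicate 3. ACBD3 fell by 0.56 and the transporter SLC27A4 by 0.30, while the binding protein FABP5 rose by 0.29. In fatty acid synthesis 7 of 14 rose and 5 fell. FASN, fatty acid synthase, stood at 564, 581 and 545 CPM against 711, 739 and 807 CPM (log2 0.42, SE 0.04, adjusted p = 8.48e-08). ACACA, acetyl-CoA carboxylase, stood at 162, 159.8 and 161 CPM against 211, 213 and 216 CPM (log2 0.41, SE 0.03, adjusted p = 2.35e-08). Both enzymes of the pathway's start were thus higher, whereas ME1, which supplies NADPH, fell by 0.80 and the desaturase SCD by 0.15. Of 24 cholesterol synthesis genes 11 fell and 7 rose, with HMGCS1 (-0.39) and FDFT1 (-0.33) among the lower ones, and 4 rose with DESeq2 or without shControl_PA replicate 1.

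Triglyceride and lipid droplet genes split at 7 higher and 5 lower of 21. G0S2, an inhibitor of the lipase that opens droplets, stood at 64.6, 65.4 and 70.4 CPM against 37.6, 32.3 and 38.004 CPM (log2 -0.89 (SE 0.06, adjusted p = 3.77e-09)). AGPAT5, an acyltransferase, stood at 62.2, 61.5 and 63.2 CPM against 111, 111 and 107 CPM (log2 0.82, SE 0.04, adjusted p = 6.56e-11), while GPAT3 fell by 0.77 and LPIN2 by 0.65. Beta-oxidation genes rose in 8 of 20 cases and fell in 5 (3 with DESeq2 or without shControl_PA replicate 2), with CPT1C at 1.23 and ACADVL at 0.36, and CPT1A, the rate-limiting carnitine transferase, stood at 124, 128 and 123 CPM against 127, 129.8 and 136 CPM without passing (adjusted p = 0.189). PPAR targets rose in 5 of 15 cases (3 with length and G+C content modelled) and fell in 2, among them PDK4 (-0.38) and VLDLR (-0.78) lower and TXNIP (0.73) higher. Sphingolipid genes rose in 8 of 23 cases and fell in 6: beside SPHK1, the desaturase DEGS1 that makes ceramide rose by 0.27 and the glucosyltransferase UGCG by 0.33, and the ceramidase ASAH1 fell by 0.32, a call lost with length and G+C content modelled (log2 -0.06, adjusted p = 0.21).

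Hypoxia and glycolysis genes fell in 22 of 39 cases and rose in 8. LDHA, lactate dehydrogenase, stood at 2179, 2155 and 2191 CPM against 1572, 1580 and 1592 CPM (log2 -0.46 (SE 0.02, adjusted p = 8.84e-12)). NDRG1, a hypoxia-induced growth regulator, stood at 429, 417 and 418 CPM against 239.8, 229 and 244 CPM (log2 -0.83 (SE 0.03, adjusted p = 2.54e-12)). The collagen hydroxylase P4HA1 fell by 0.82, HIF1A itself by 0.56 and VEGFA by 0.42 on the log2 scale. Against this, the lactate exporter SLC16A3 rose by 0.72 and the peptide gene ADM by 1.61. CA9, a carbonic anhydrase induced by hypoxia and picked out after its values were seen, rose by 1.99 (59 against 252 counts), and 38.5% of its exon bases overlap ARHGEF39.

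Growth genes were mostly a little higher. S phase genes rose in 30 of 44 cases and fell in 3. The replicative helicase subunit MCM2 stood at 161, 152 and 155 CPM against 225, 228 and 252 CPM (log2 0.59, SE 0.04, adjusted p = 5.26e-09), MCM4 rose by 0.43, UHRF1 by 0.42 and E2F1 by 0.50. G2/M genes split evenly, 12 higher and 12 lower of 36, with CENPE (-0.63), KIF11 (-0.40) and CDK1 (-0.31) lower. The E2F motif TTTNGCGC, on either strand, was in the promoters of 15 of 36 S phase genes with a window, 8 of them higher and 2 lower, and in 3.11% of all promoters. Over all 326 promoters with a match 96 genes rose and 77 fell. Nuclear respiratory chain subunits rose in 35 of 64 cases and fell in 4, by small amounts such as 0.29 for ATP5F1B, and COX5A stood apart at 95.4, 105 and 98.8 CPM against 45.6, 42.4 and 41.3 CPM (log2 -1.21 (SE 0.05, adjusted p = 8.57e-12)). Cytosolic ribosomal proteins rose in 49 of 72 cases and fell in 3, with RPS2 at 0.33 and RPL12 at 0.29. These are short transcripts with many pseudogene copies, and with length and G+C content modelled 30 rose and 14 fell, while of the respiratory chain subunits 24 rose and 8 fell.

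The log2 change moved with the length and base composition of the transcript. With the genes split by length into 5 bins of equal size, the median fell from 0.14 in the shortest to -0.12 in the longest bin, and along 5 bins of G+C content it rose from -0.19 to 0.11. The same order was present in the untreated libraries, from 0.19 to -0.18 and from -0.25 to 0.16. Whether RNA quality or library preparation moved with the groups was not tested, and with both properties modelled 7209 genes were called, 5885 of them shared with the same direction. Among the named genes that kept their call, the offset brought these log2 changes more than 1.5 times closer to 0: KYNU -0.60, SAMD9 -0.56, SKIL -0.55, SLC7A11 -0.50, GCLM -0.45, SEL1L -0.43, REL -0.37 and FN1 -0.36. The same held for ITGA2 -0.34, HIF1A -0.33, CENPE -0.29, HMGCS1 -0.26, PDK4 -0.22, DNAJC10 -0.21, KIF11 -0.18 and CDK1 -0.17 among lower genes and for FTL 0.38, RPS2 0.18, RPL12 0.17, ATP5F1B 0.15, RELA 0.12 and FABP5 0.10 among higher genes. It moved FTH1 and ATF4 further from 0, to -0.48 and -0.30.

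**Figure D4:**
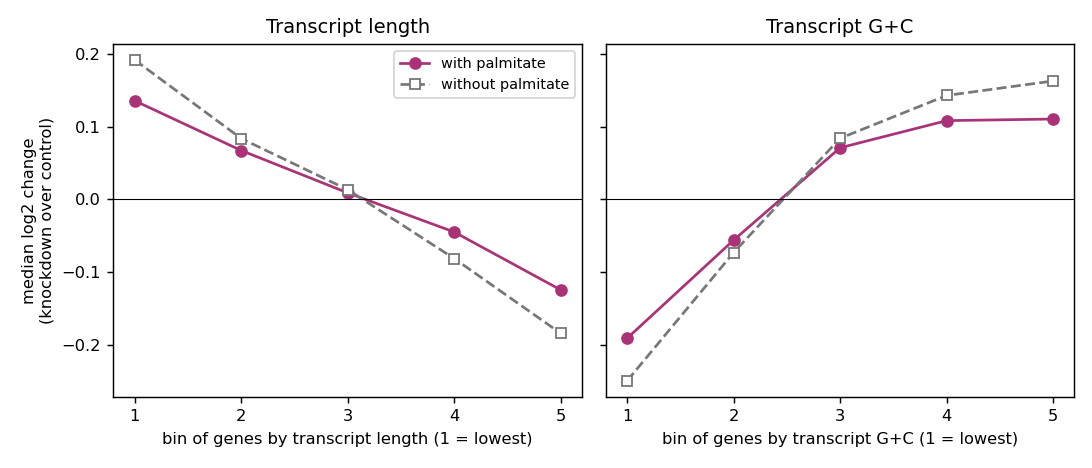
Median log2 change of knockdown over control in 5 bins of the tested genes by length (left) and by G+C content (right) of the longest annotated transcript, with palmitate (filled circles) and without (open squares). The medians with palmitate run from 0.14 to -0.12 along length and from -0.19 to 0.11 along G+C content.

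Set beside the knockdown without palmitate, which shares no library with this comparison, most changes recurred. Of 13871 genes tested in both, 6438 were called in both, 6390 in the same direction and 48 in the opposite, which is 86.6% of the calls with and 71.2% of those without palmitate (where 64.0% of genes were called). The median size of a change was 0.24 with and 0.34 without palmitate on the log2 scale. A difference between the 2 effects was called for 2139 of 14706 genes (14.5%), 49.2% of them above 0 (59.9% when scaled by library totals alone, 43.7% with other size factors and 42.4% with DESeq2), and among the 2130 also tested in both settings the effect was smaller with palmitate for 1956 and larger for 174. DPYSL3 is an example, with a log2 change of -3.55 without and -1.85 with palmitate (difference 1.70 (SE 0.18, adjusted p = 1.42e-06)). HSD17B10 rose by 2.61 without and 1.92 with palmitate (difference -0.68 (SE 0.11, adjusted p = 0.000202)). For ACSL5 the 2 changes were -3.65 and -3.63, a difference of 0.03 (SE 0.10, adjusted p = 0.897), so that the depth of the knockdown itself differed by less than its error.

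**Figure D5:**
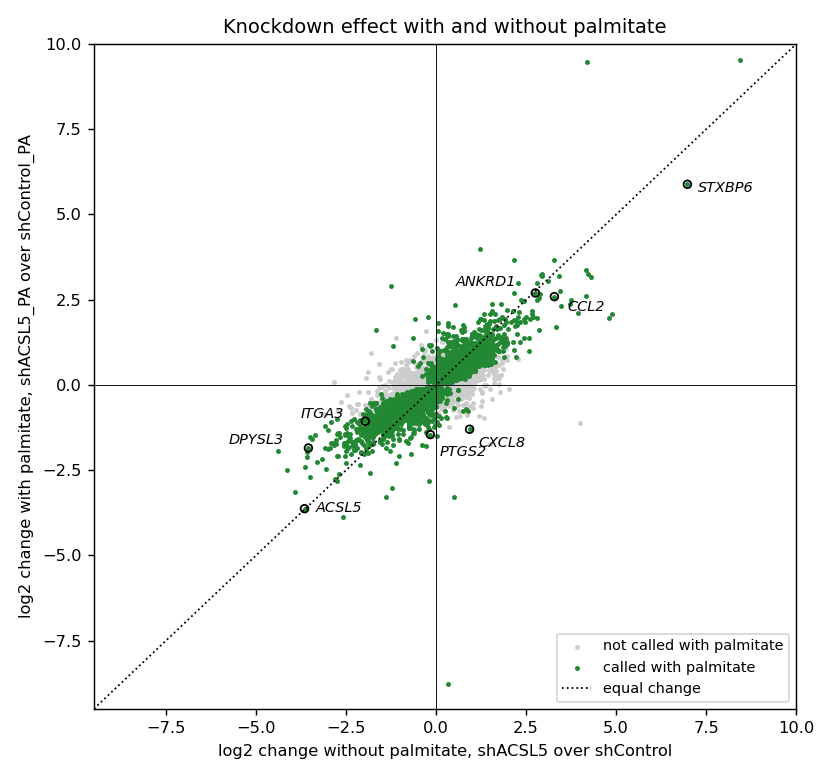
The log2 change of each gene on knockdown without palmitate (horizontal) and with palmitate (vertical), with genes called with palmitate in green and equal change as a dotted line. Most called genes lie in the upper right and lower left, ACSL5 on the line of equal change, and CXCL8 in the lower right at 0.93 and -1.30.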

How the data were processed

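The table that the authors deposited holds unnormalized whole-number counts of 57730 genes in 12 libraries. The submitters' processing notes name GRCh38, the trimmer fastp 0.22.0, the aligner HISAT2 2.1.0 and the counter featureCounts. Annotation release and strand setting were not given in the sources used here, and overlapping genes therefore cannot be told apart. Of the Ensembl identifiers 51928 matched a current symbol, and the mitochondrially encoded genes were at 0.

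Groups and replicate numbers came from the sample titles. The 6 palmitate libraries were fitted alone with edgeR 4.0.16 in R 4.3.3 (filterByExpr, TMM, quasi-likelihood test, Benjamini-Hochberg adjustment over 14090 genes, called at adjusted p under 0.05); every adjusted p is from this tool unless another is named. The SE of a log2 change was derived from the coefficient and its F statistic. The untreated libraries were fitted in the same way, and the difference of effects on all 12. Scripts were tested on simulated counts with 50 genes changed at each fold, far fewer than were called in the data. The fit recovered 46% of 1.25-fold, 76% of 1.5-fold, 80% of 2-fold and 98% of 4-fold changes. Of its calls at adjusted p under 0.05, 10.7% (18 genes) were false. Overlaps and coordinates are from GENCODE v29 and promoters from RefSeq GRCh38.p14, for 10493 of the 14078 symbols tested.

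Members and lists were chosen with earlier results of these data known. The rule named the ACSL family, the 12 largest rises and falls among called genes of at least 5 CPM without overlap, and the 4 lowest-p called members of each list; other names are said to be chosen after their values were seen, or are list members added in that way. Alternatives were DESeq2 1.42.0, other scalings, no filter, a replicate block, all 12 libraries, leaving out each library and, added after seeing the data, an offset for transcript length and G+C content (mgcv 1.9.3).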

Additional observations from a re-analysis of the deposited data

Results flagged for a closer look

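The knockdown effect with palmitate was compared with that without it by the interaction term of the 12-library fit, given as effect with minus effect without palmitate on the log2 scale. The 51 genes taken up here are ACSL5, the genes named by size in these data and the tested NF-kB list members. Of these, 12 passed an adjusted p under 0.05 in edgeR's quasi-likelihood test, beside 14.5% of all genes. The term was also read for other genes, such as DNAJC10 above, and counted over every list. Among genes that rose on knockdown, the effect was lower with palmitate for ADAMTS6 (-0.50), KRTAP2-3 (-0.50) and HSD17B10 (-0.68), and IL11 differed by 0.55, from a log2 change of -0.14 to 0.40. Among genes that fell, the fall was shallower with palmitate for JCAD (0.67), DPYSL3 (1.70) and TNFAIP2 (0.44) and deeper for C21orf91 (-0.46). The NF-kB targets CXCL8 (-2.22), TNFAIP3 (-1.53), PTGS2 (-1.29) and NFKBIA (-0.80) were lower under palmitate than the untreated effect, 3 of them with opposite directions in the 2 settings. The untreated effect of CXCL8 rests on low levels, 1.69 CPM in control and 3.18 CPM in knockdown libraries.

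In 7 gene lists at least 5 members differed in this way, all with one sign, which is why these lists are named. The called interaction was above 0 for 11 of 23 integrin and laminin subunits, 11 of 26 mesenchymal and matrix genes and 8 of 24 cholesterol synthesis genes. It was below 0 for 55 of 72 ribosomal protein genes, 17 of 44 S phase genes, 12 of 29 heat shock genes and 7 of 28 ER chaperone genes. These counts stand beside the 14.5% called of all genes. Among 2130 called differences of genes tested in both settings, 1956 were a smaller effect with palmitate, so their sign is opposite to the untreated effect. Without palmitate, members mostly fell among integrins and laminins (18 against 3 higher), matrix genes (15 against 5) and cholesterol genes (14 against 5). They mostly rose among ribosomal (69 against 1 lower), S phase (36 against 1) and heat shock genes (22 against 1). ER genes departed from this, with 13 lower and 8 higher. Over all genes 49.2% of called differences were above 0, but 42.4% with DESeq2 and 59.9% with library totals alone.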

How the results depend on the processing

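The count of 7405 called genes was 6304 with DESeq2, 7385 with other size factors, 7398 with library totals alone, 7482 without the filter, 7432 with all 12 libraries, 7209 with the length and G+C offset, and 6600 to 6914 leaving out 1 library. Correlations of deviations between knockdown and control libraries of equal replicate number were -0.05, 0.10 and -0.04. The positive values were shACSL5_PA replicate 1 with shControl_PA replicate 3 (0.09), 2 with 2 (0.10) and 3 with 1 (0.09). All others lay from -0.06 to -0.04, and whether such libraries share a batch was not tested. The fit with the replicate block, which paired equal numbers, called 7143 genes. Without the filter the difference of effects was called at 2-fold or more for 199 genes in place of 111. Beside the list counts whose moves are given with them above, the following moved by over 1.5 times. With the offset, 3 stress response genes rose in place of 6, 1 ER gene in place of 0, 7 interferon genes in place of 3, 1 integrin or laminin gene in place of 0, 5 hypoxia genes in place of 8 and 30 ribosomal genes in place of 49, while 8 respiratory chain genes fell in place of 4 and 14 ribosomal genes in place of 3. With DESeq2 1 interferon gene rose. Leaving out 1 library gave 1 to 3 higher interferon genes (the lowest without shControl_PA replicate 2) and 0 to 1 higher integrin or laminin genes (the highest without shACSL5_PA replicate 1). Values that changed sign were ACSL4 (0.11 with the offset), DDIT3 (-0.17 to 0.12 leaving out 1 library, above 0 without shControl_PA replicate 1 or shACSL5_PA replicate 2) and IL6 (-0.38 to 0.34, above 0 in the same settings), the last 2 not called. Of the named genes' values 2862 kept direction and side of the threshold, 16 lost it, 3 gained it and 5 changed sign. The cause of these moves was not tested. Levels under 1 CPM rest on few counts, which limits CCL2, IL6, IL1A, MMP1, STXBP6, PDE1C, TMEM236, CST1, CST4 and LGR5 among others.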

Other observations

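In 5 called genes one group had no count at all, and these were picked out after their values were seen. KISS1, which encodes kisspeptin and is known as a metastasis suppressor gene, had 0 counts in each control library and 87, 72 and 114 counts in the knockdown libraries. Against a floor of 3 counts over the control group it was at least 84.3-fold higher. Without palmitate it had 2, 3 and 3 counts in control and 57, 37 and 66 in knockdown libraries. PLCE1-AS1, an antisense RNA of which 5.61% of exon bases overlap PLCE1, had 0 counts in control and 114, 84 and 89 in knockdown libraries, at least 88.7-fold higher. ANO2, an ion channel gene (15, 13 and 13 counts, at least 12.7-fold higher), and LINC01582 (16, 18 and 11 counts, at least 13.9-fold higher) were likewise without counts in every control library, treated or not. TNFSF12-TNFSF13, a read-through locus of which 100% of exon bases overlap other genes such as TNFSF13, had 70, 73 and 15 counts in control and 0 in knockdown libraries, but ran from 0 to 47 and from 0 to 80 counts within the untreated groups, so its counts vary within a group.

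Other low genes moved by large factors. PDE1C, a cyclic nucleotide phosphodiesterase, rose by 3.24 (SE 0.29), TMEM236 by 3.67 (SE 0.29) and the stem cell receptor LGR5 by 3.03 (SE 0.53) on the log2 scale. These rises rest on 32, 20 and 11 counts over the control libraries. The secreted cystatins CST1 (-3.15, SE 0.46) and CST4 (-3.87, SE 0.59), near-identical copies that may share reads, fell, as did the tetraspanin TSPAN6 (-1.52, SE 0.08). The cystatins had 18 and 5 counts over the knockdown libraries.

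Genes of chromosome 14 had a median log2 change of -0.16, with 30.5% above 0 (54 higher and 191 lower of 452), and genes of chromosome 19 one of 0.17, with 69.9% above 0. With the length and G+C offset the medians were -0.12 and 0.11, and without palmitate they were -0.12 and 0.24. Long intergenic RNAs had a median of 0.26 over 374 genes, beside 0.00 over 12139 protein-coding genes.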
